A study of Mus musculus with 12 samples.

Results

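The genes described here are 50 mouse genes whose products copy DNA: the origin recognition complex, the licensing factors, the MCM helicase and the factors that activate it, the fork protection proteins, the replicative polymerases with primase, the PCNA clamp and its loader, replication protein A, the enzymes that finish Okazaki fragments, ribonucleotide reductase and the CAF-1 histone chaperone. They were chosen by function from a named list, not by their values, though with earlier results of these data known. All 50 were found by symbol among 49585 genes in the count files. The libraries came from naive CD4 T cells that were isolated from the lymph nodes of female mice on a C57B6/J background and activated in culture for 20 h on plates coated with antibodies to CD3 (5 ug/ml) and CD28 (1 ug/ml). Control cells were Rnmt fl/fl without Cre (CD4cre -), and the conditional knockout cells (Rnmt cKO) were Rnmt fl/fl with CD4-Cre (CD4cre +), a transgene driven by Cd4 regulatory sequence that deletes floxed DNA during T cell development in the thymus. Both genotypes therefore carried the loxP sites around exon 3 of Rnmt, and the control cells had no Cre, so an effect of Cre itself cannot be told apart from the loss of Rnmt. From each genotype, 3 libraries of total cytoplasmic RNA and 3 libraries of ribosome protected fragments (RPFs, the stretches of mRNA that ribosomes shield from nuclease) were made after cells had been held for 1 min in 0.1 mg/ml cycloheximide, which stalls elongating ribosomes.

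Replication origins are marked by the origin recognition complex, and in G1 the licensing factors CDC6 and CDT1 load the MCM helicase onto them. At S phase entry the kinase CDC7-DBF4 and the proteins CDC45, MCM10 and GINS switch the helicase on, after which primase, the polymerases, the clamp and its loader build the new strands. Resting T cells hold few of these proteins, and activation through the antigen receptor is known to switch on their genes, largely through E2F transcription factors, before cells begin to divide. RNMT, the enzyme deleted here, methylates the guanosine cap at the 5′ end of mRNA, which the translation machinery recognises.

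Depth was 15079703 to 22629563 gene reads per library of total RNA and 4123271 to 10661356 per library of RPFs, and Rnmt cKO replicate 3 was the shallowest of the latter. The replication genes were well covered. The fewest reads of any of them in a library were 419 in total RNA, for Orc1, and 102 in RPFs, for Gins3. Levels are given as CPM, read counts scaled to a common library size after TMM normalisation within each kind of library, so every change is relative to the rest of the sequenced RNA. In such bulk samples, fewer cells expressing a gene and less RNA per cell cannot be told apart.

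The targeted gene followed the labels. Total Rnmt RNA was at 95.3, 93.9 and 94.1 CPM in the controls and at 29.3, 32.3 and 30.3 CPM in Rnmt cKO libraries. Its RPFs were at 104, 87.7 and 98.7 CPM in the controls and at 10.5, 10.3 and 9.57 CPM in Rnmt cKO libraries. The genotypes were well separated in both kinds of library, with a log2 fold change of -1.62 ± 0.06 (SE) in total RNA (edgeR adjusted p = 5.84e-06) and of -3.24 ± 0.10 in RPFs (edgeR adjusted p = 4.81e-06). Counts covered all exons, so RNA that had lost only exon 3 still contributed to them.

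All 8 T cell markers examined were expressed in every library, Cd4 itself at 315 to 349 CPM of total RNA in controls and 270 to 315 CPM in Rnmt cKO libraries. The summed level of the 8 in total RNA was 3319 to 3596 CPM in controls and 2537 to 2884 CPM in Rnmt cKO libraries, and Cd3g, a subunit of the antigen receptor complex, was lower by a log2 fold change of -1.23 ± 0.11 (edgeR adjusted p = 7.52e-05). Cd3d, Cd5 and Lck also fell, by 0.74, 0.65 and 0.90 on the log2 scale, and Cd3e, Cd247, Cd28 and Cd4 were not called in total RNA. The 5 B cell markers (Cd79a, Cd79b, Ms4a1, Pax5 and Cd22) summed to 7.41, 4.75 and 26.5 CPM of total RNA in control replicates 1 to 3 and to 69.4, 89.2 and 15.6 CPM in Rnmt cKO replicates 1 to 3. Their most abundant gene, Ms4a1, reached 41.0 CPM, and no marker of the 5 was at 0 reads in total RNA. The RPF libraries gave the same split, with 101 and 115 CPM in Rnmt cKO replicates 1 and 2 against 16.4 CPM in replicate 3 and at most 29.2 CPM in controls. Rnmt cKO replicates 1 and 2 thus held more B cell RNA than the other libraries, although the cells were purified with a naive CD4 T cell kit. The part of this RNA in the results for the replication genes was not tested. Other lineages were scarce in total RNA: CD8 markers (Cd8a and Cd8b1) summed to 9.83 to 41.6 CPM, and the 5 NK cell markers to 3.38 to 4.52 CPM in controls and 5.13 to 10.9 CPM in Rnmt cKO libraries, where Gzma reached 7.26 CPM. Klrb1c was at 0 reads in control replicates 1 and 2, and Ncr1 in control replicate 3. Among 6 myeloid markers, which summed to 31.1 to 33.5 CPM, the broadly expressed Cst3 gave 29.6 to 31.4 CPM. The 3 regulatory T cell markers summed to 98.1 to 111 CPM in controls and 169 to 203 CPM in Rnmt cKO libraries, most of it Tnfrsf18. Tnfrsf18 and Ikzf2 both rose in total RNA, by 0.77 and 1.12 on the log2 scale, and Foxp3, which defines that lineage, was below the filter on low counts at 0.699 to 0.900 CPM in controls and 0.360 to 0.881 CPM in Rnmt cKO libraries. The 5 activation markers summed to 1334 to 1388 CPM and 1690 to 1805 CPM. Nr4a1 rose in total RNA, as did Il2ra, Cd69 and Mki67, by 0.81, 0.85 and 0.64 on the log2 scale, while Tfrc, the most abundant, was not called (-0.03 ± 0.07).

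In control cells Mcm6, Mcm5, Mcm3 and Pcna were the most abundant of these mRNAs per length. Mean total RNA ranged from 9.56 CPM per kb of exon for Orc1, the largest subunit of the origin recognition complex, to 215 ± 9.50 (SD, n = 3) for Mcm6. Mcm5 at 212 ± 16.4, Mcm3 at 207 ± 14.2 and Pcna at 205 ± 20.0 CPM per kb lay within the replicate spread of Mcm6, and the next gene down was Mcm4 at 137 ± 3.13. On the RPF side, measured per kb of coding sequence, Mcm3 led with 752 ± 14.5 CPM per kb, ahead of Mcm6 at 705 ± 30.9 and Mcm5 at 646 ± 37.5. The lowest RPF level was 23.3 ± 0.698 CPM per kb for Dbf4, the activating subunit of the CDC7 kinase, which Orc1, at 23.7 ± 3.68, matched within its spread. The plot of control levels by role shows the helicase and the clamp at the high end, with the origin recognition complex spread over the low and middle range.

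**Figure D1:**
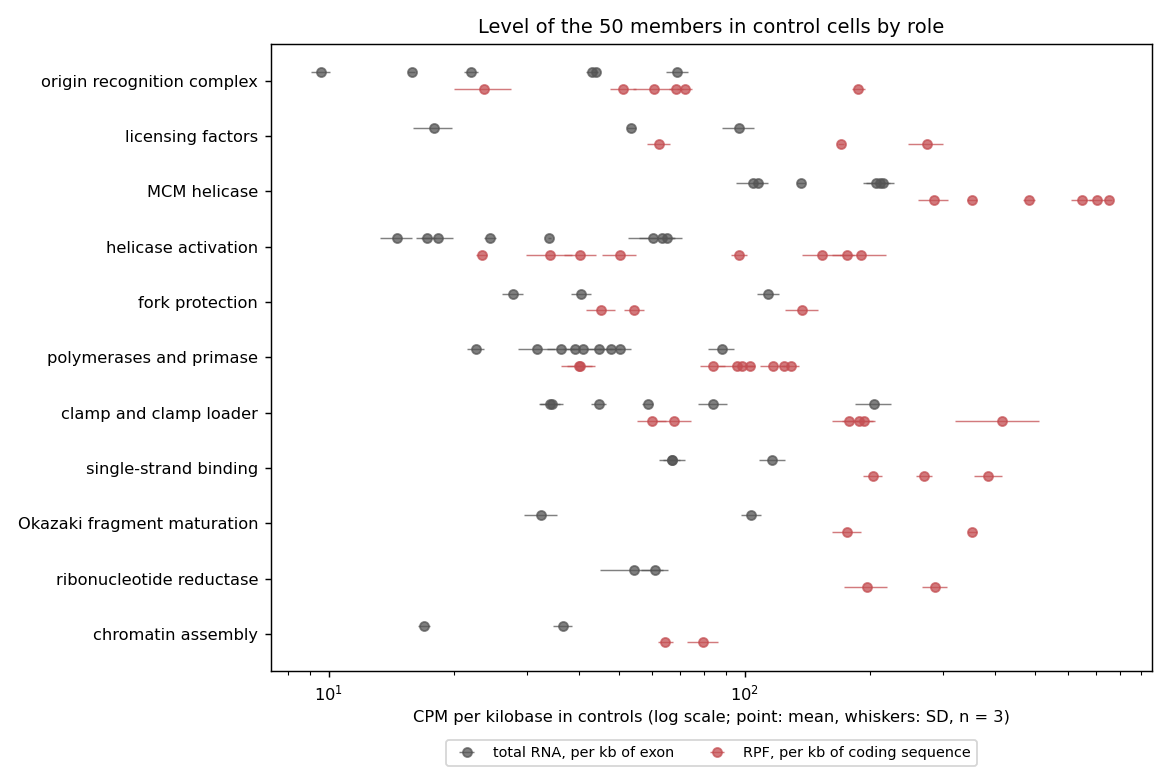
Levels of the 50 replication genes in control cells, as CPM per kb on a log axis, by role; grey points are total RNA per kb of exon and red points RPFs per kb of coding sequence (mean, whiskers SD, n = 3). Mcm6, at 215, lies furthest right in total RNA and Mcm3, at 752, in RPFs.

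In control cells 37 of the 50 replication mRNAs had a ratio of RPF to total RNA above the median of all genes. The ratio of RPF to total RNA was above the expectation of equal CPM for 38 of the 50 genes and below it for 6 (edgeR quasi-likelihood test, adjusted p under 0.05), whereas 44.5% of all 10668 genes tested were called higher and 30.2% lower (74.6% in either direction). Their median ratio stood 0.44 above the median of all genes on the log2 scale. Lig1, the ligase that seals Okazaki fragments, lay highest at 1.93 above the all-gene median, followed by Mcm3 at 1.36, Rrm1 at 1.30, Rfc4 at 1.27 and Mcm2 at 1.22. Tipin and Dbf4 lay lowest, at -1.06 and -1.02. All 6 MCM genes were called higher, while 3 of the 8 helicase activation genes (Cdc7, Dbf4 and Gins3) were called lower. RPFs come from coding sequence and total RNA from whole transcripts, so a gene with long untranslated regions has a lower ratio, and the ratio was not corrected for this. In Rnmt cKO cells 38 of the 50 were again called higher and 8 lower, against 44.6% and 29.8% of all genes (74.4% in either direction).

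With Rnmt deleted, replication genes moved in both directions in total RNA, and falls outnumbered rises. Of the 50 genes, 17 fell and 4 rose in total RNA (edgeR quasi-likelihood test, adjusted p under 0.05), where 28.0% of all 11519 genes tested fell and 26.3% rose (54.2% in either direction). In RPFs 20 fell and 3 rose, where 15.7% of 11428 genes tested fell and 14.1% rose (29.8% in either direction). The falls were thus 34% of the replication genes in total RNA and 40% in RPFs, and the rises 8% and 6%. In total RNA the share of falls was near that of all genes, and the share of rises was below it. Called shares depend on precision as well as on size of change, and the replication genes were measured more precisely than most. Their median SE was 0.069 in total RNA (0.101 over all genes) and 0.075 in RPFs (0.124 over all genes). A change of a given size was thus more readily called among them. The median log2 fold change of the 50 genes was -0.08 in total RNA (-0.00 over all genes) and -0.14 in RPFs (0.01 over all genes). In total RNA the Rnmt cKO libraries were all lower than the controls for 18 genes and all higher for 10, where 32.3% and 30.0% of all genes were so. In RPFs the counts were 23 and 4, against 24.3% and 22.2% of all genes. Leaving out the Rnmt cKO libraries rich in B cell RNA, an alternative chosen after seeing the data in which a single Rnmt cKO library is assumed to vary like the controls, gave 14 falls (Lig1 newly among them) and 4 rises (Orc3 newly among them) in total RNA, where 20.8% of all genes fell and 19.7% rose. The falls of Gmnn, Cdc7, Gins1 and Prim2 and the rise of Rrm2 lost their total RNA calls there. In RPFs that fit gave 4 falls (Mcm6, Timeless, Pole and Rfc2) and 0 rises, where 4.75% of all genes fell and 4.36% rose (9.10% in either direction). The other 19 RPF calls were lost in this fit, which held fewer libraries. The log2 fold change was at least as large as with all libraries for 14 of the 19 and smaller for Orc4, Orc6, Cdc45, Pole2 and Rfc1, and the median of the 50 genes was -0.24. Without Rnmt cKO replicate 1 alone, 13 genes fell and 1 rose in RPFs (11.5% and 10.1% of all genes), and without control replicate 3 there was 1 rise (11.5% of all genes).

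Summed over all 50 genes, total RNA was at 9154, 9512 and 8580 CPM in controls and at 8801, 8480 and 8537 CPM in Rnmt cKO libraries, 94.8% of the control mean, and the genotypes overlapped. Summed RPFs were at 16588, 16626 and 15484 CPM in controls and at 14238, 14273 and 13467 CPM in Rnmt cKO libraries, 86.2% of the control mean, with no overlap. Most of that difference was MCM helicase RPFs, whose sum fell from a mean of 7834 to 6381 CPM.

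Calls in the 2 kinds of library coincided for some roles and not for others. In 10 genes both total RNA and RPFs fell (Timeless, Tipin, Pola2, Prim1, Prim2, Pold1, Pole, Pole2, Rfc1 and Rfc2), against 12.9% of the 10668 genes tested in both. A fall in total RNA with no call in RPFs was found in 7 genes (Cdt1, Gmnn, Cdc7, Gins1, Pold3, Rfc4 and Rfc5), against 15.9%. A fall in RPFs with no call in total RNA was found in 9 genes (Cdc6, Mcm3, Mcm4, Mcm5, Mcm6, Mcm7, Gins2, Rpa1 and Lig1), against 2.94%. Chaf1a rose in total RNA and fell in RPFs, Orc4 rose in both, and 18 genes were called in neither. A call in one kind of library and not in the other is not by itself a difference between them, and that difference was tested as translation efficiency (TE).

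**Figure D2:**
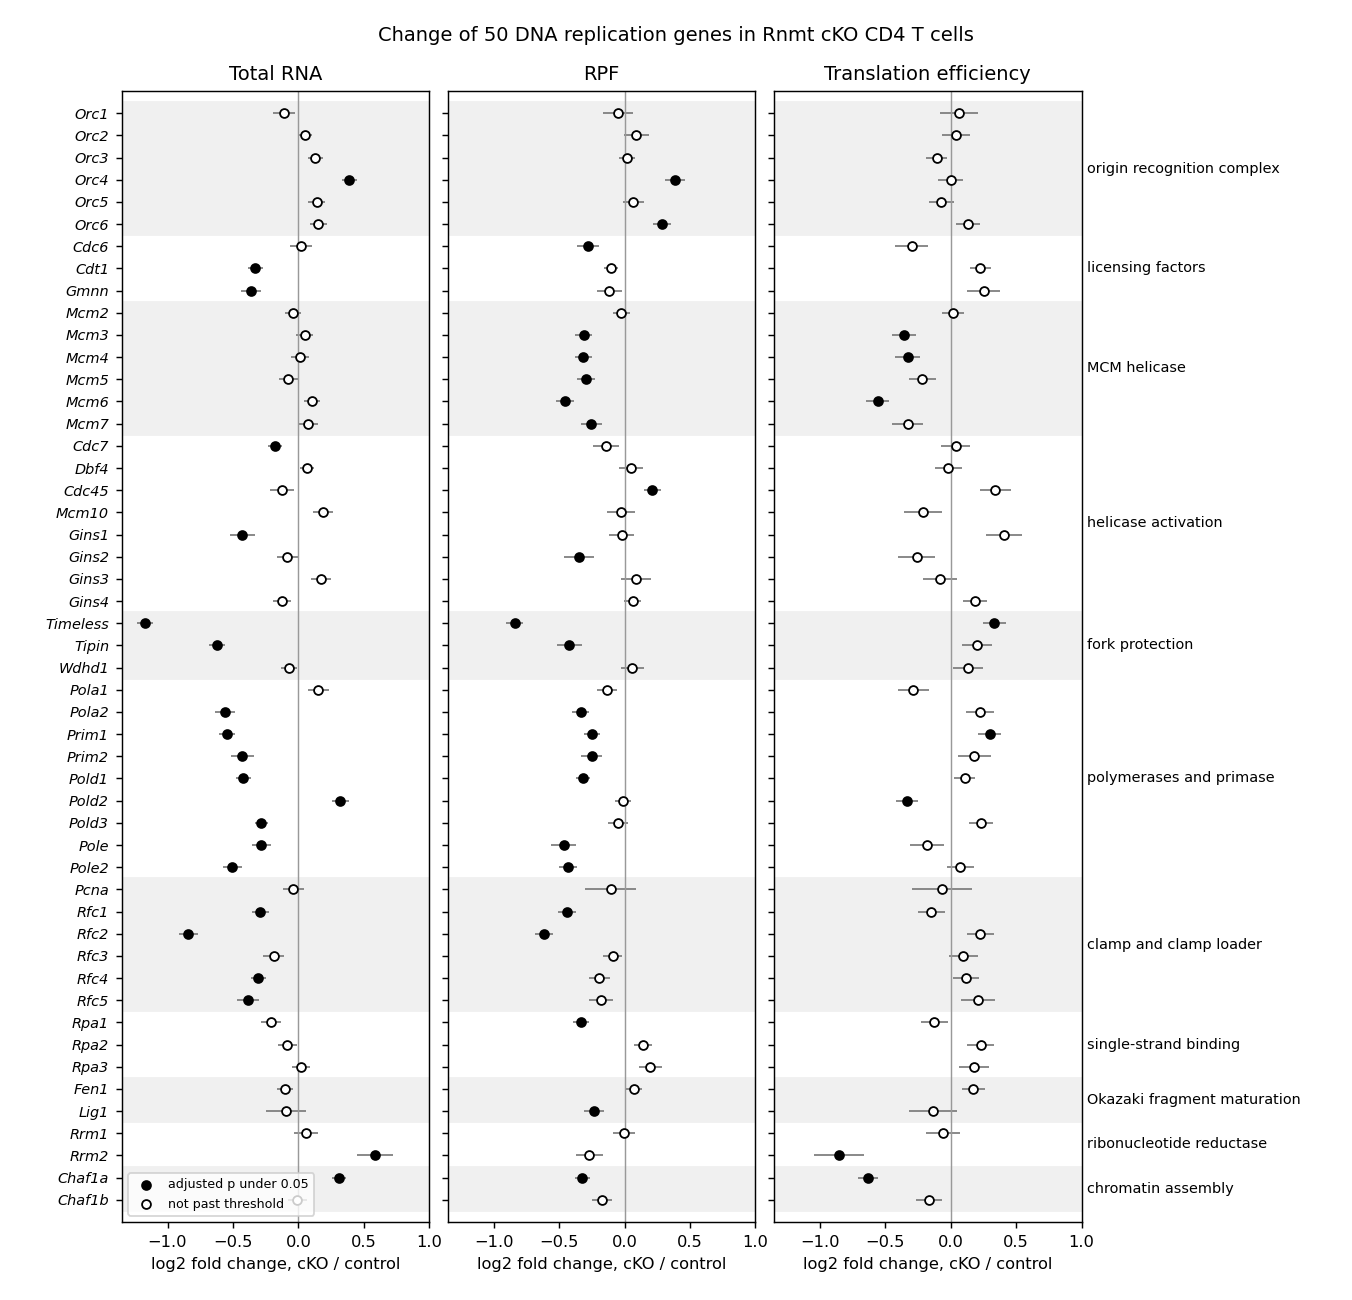
Log2 fold change (Rnmt cKO over control, horizontal axis, whiskers SE) of each of the 50 replication genes in total RNA, RPFs and TE, ordered by role. Filled points passed an adjusted p of 0.05; they sit to the left of 0 for 17, 20 and 6 genes and to the right for 4, 3 and 2.

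TE compares the RPF change with the total RNA change of the same gene in a single model over the 12 libraries. It fell for 6 of the 50 genes (Mcm3, Mcm4, Mcm6, Pold2, Rrm2 and Chaf1a) and rose for 2 (Timeless and Prim1) at an edgeR adjusted p under 0.05, against 6.57% and 3.24% of 10668 genes tested (9.81% in either direction). The median SE of the TE change was 0.103 for the 50 and 0.160 over all genes, so here too a given change was more readily called. The median TE change of the 50 was 0.03, against 0.04 over all genes. In 13 genes each the 3 Rnmt cKO ratios lay all below or all above the controls, against 14.9% and 16.6% of all genes. The TE calls were sensitive to single libraries and to scaling. Scaling by library size without TMM gave 5 falls and 0 rises, and upper-quartile scaling gave 3 and 2. Leaving out a library gave 2 falls without control replicate 1 and 3 without control replicate 3 or Rnmt cKO replicate 1, and no rise without control replicate 1, control replicate 2, Rnmt cKO replicate 1 or Rnmt cKO replicate 2, and 1 rise without Rnmt cKO replicate 3. Mcm6 and Chaf1a were called in all 15 alternatives, including the one without both libraries rich in B cell RNA, where they were the 2 falls left and no gene rose (2.84% and 0.784% of all genes).

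**Figure D3:**
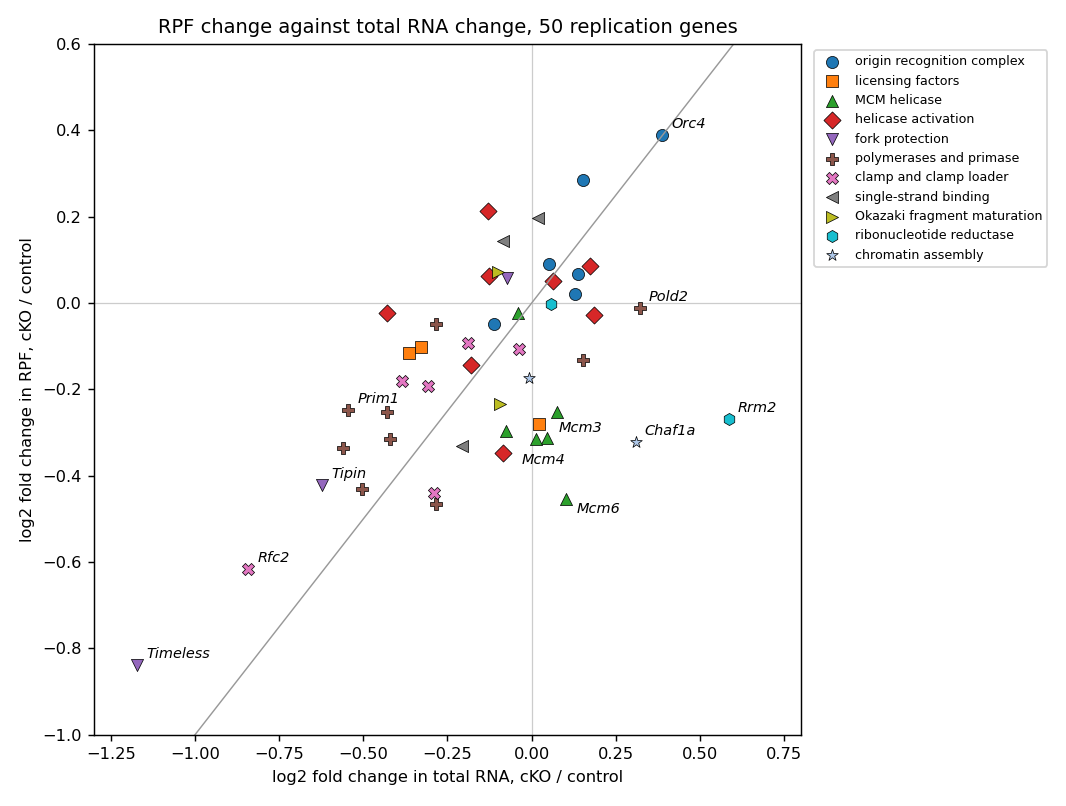
Log2 fold change in RPFs (vertical axis) against that in total RNA (horizontal axis) for the 50 replication genes, Rnmt cKO over control, marked by role; the diagonal is equal change. Rrm2, Chaf1a and Mcm6 lie furthest below the diagonal, with TE changes of -0.85, -0.63 and -0.56.

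RPFs of the MCM helicase, the ring of MCM2 to MCM7 that unwinds the parental DNA, fell with no called change in its RNA. None of the 6 genes was called in total RNA (0 of 6 also at an unadjusted p under 0.05 and by DESeq2), whereas the RPFs of 5 fell, all but Mcm2. Over all genes 54.2% were called in total RNA, 15.7% fell in RPFs and 2.94% fell in RPFs with no call in total RNA. Without both Rnmt cKO libraries rich in B cell RNA, Mcm6 alone of the 5 was still called, and Mcm3, Mcm4, Mcm5 and Mcm7 changed by -0.37, -0.36, -0.31 and -0.33 (edgeR adjusted p = 0.0524, 0.0629, 0.114 and 0.131). Total Mcm6 RNA was at 959, 967 and 891 CPM in controls and at 1023, 991 and 1010 CPM in Rnmt cKO libraries. RPFs of Mcm6 were at 1839, 1754 and 1685 CPM in controls and at 1295, 1331 and 1228 CPM in Rnmt cKO libraries. Every Rnmt cKO library was thus slightly above the controls in RNA, by a log2 fold change of 0.10 ± 0.06 that missed the threshold (edgeR adjusted p = 0.172), and well below them in RPFs, by -0.45 ± 0.07 (edgeR adjusted p = 0.00219). The difference between these changes, the TE change, was -0.56 ± 0.09 (edgeR adjusted p = 0.00142).

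Mcm3 RPFs were at 1828, 1868 and 1797 CPM in controls and at 1466, 1538 and 1423 CPM in Rnmt cKO libraries, a log2 fold change of -0.31 ± 0.06 (edgeR adjusted p = 0.0086). Its total RNA was at 642, 661 and 579 CPM in controls and 649, 638 and 657 CPM in Rnmt cKO libraries. The RNA groups overlapped and the RPF groups did not, and TE changed by -0.36 ± 0.09 (edgeR adjusted p = 0.0258), a call that held in 1 of the 6 fits with a library left out. Mcm4 RPFs were at 1236, 1298 and 1215 CPM in controls and at 978, 1059 and 976 CPM in Rnmt cKO libraries, with total RNA at 478, 495 and 499 against 519, 511 and 457 CPM. Again only the RPF groups stood apart, by -0.31 ± 0.07 (edgeR adjusted p = 0.00928), and TE changed by -0.33 ± 0.10 (edgeR adjusted p = 0.0465). That TE call was lost in 5 of the 6 fits with a library left out, and it was lost, and Mcm7 gained one, when total RNA and RPF libraries of the same number were treated as pairs from the same cells.

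Mcm5 RPFs were at 1425, 1504 and 1338 CPM in controls and at 1133, 1191 and 1153 CPM in Rnmt cKO libraries, and its total RNA at 757, 771 and 667 against 693, 665 and 723 CPM. The RPF change of -0.30 ± 0.07 passed the threshold (edgeR adjusted p = 0.0138) but not without Rnmt cKO replicate 1 or without both libraries rich in B cell RNA, and the TE change of -0.22 ± 0.10 did not pass (edgeR adjusted p = 0.21). Mcm7 RPFs were at 665, 617 and 561 CPM in controls and at 550, 506 and 490 CPM in Rnmt cKO libraries, with total RNA at 317, 334 and 280 against 339, 317 and 325 CPM. This RPF change of -0.25 ± 0.08 was close to the threshold (edgeR adjusted p = 0.0463), the call was lost in 5 of the 6 fits with a library left out, and TE changed by -0.33 ± 0.12 (edgeR adjusted p = 0.0965). Mcm2 was called in neither measure: RPFs were at 931, 958 and 984 CPM in controls and at 925, 979 and 922 CPM in Rnmt cKO libraries, and total RNA was at 368, 350 and 369 against 357, 365 and 334 CPM. Its genotypes overlapped throughout, with log2 fold changes of -0.02 ± 0.06 in RPFs and -0.04 ± 0.06 in total RNA. Whether Mcm2 and the other subunits differ from each other was not tested.

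**Figure D4:**
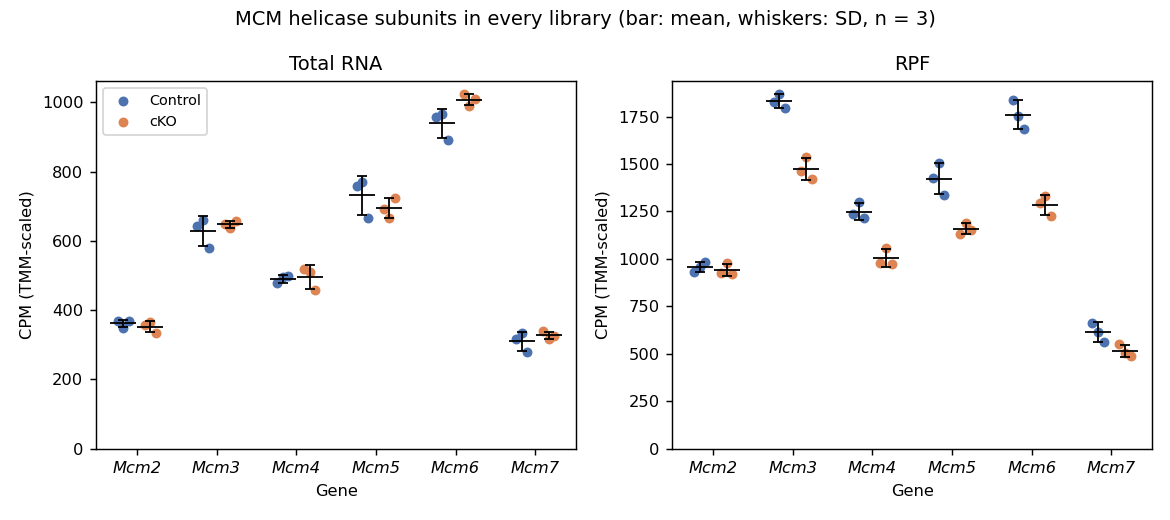
CPM of Mcm2 to Mcm7 in every library of total RNA (left) and RPFs (right), controls blue and Rnmt cKO orange; bars are means and whiskers SD (n = 3). In total RNA the groups overlap except for Mcm6, and in RPFs the Rnmt cKO points of Mcm3 to Mcm7 lie below the controls.

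The genes from Mcm3 to Mcm7 and Cdc6 are classical E2F targets, and promoter stretches of 3 of them are shown for the E2F sequence they hold. Whether this sequence bears on any change in RPFs or total RNA was not tested. RefSeq promoter windows (GRCm38.p6, 250 bases before to 50 after the annotated start) were found for 41 of the 50 genes. The E2F words TTTCCCGC, TTTGGCGC, TTTCGCGC and TTTGCCGC, searched on both strands with overlaps allowed, occurred in 15 of the 41, or 36.6%, against 2.61% of 27025 genes with a window. The shorter CCAAT box, likewise on both strands, occurred in 24 of the 41, or 58.5%, against 41.1% of genes. Among genes whose RPFs fell with no call in total RNA, Cdc6, Mcm3, Mcm5, Mcm6, Mcm7 and Lig1 held an E2F word and Rpa1 did not; Mcm2 did not either, and Mcm4 and Gins2 had no window in the table. The other 9 genes with the word were Cdt1, Pold1, Pold3 and Pole2, which fell in total RNA, and Orc1, Orc3, Gins3, Pola1 and Rfc3, which were called in neither kind of library. The 60-base stretches around an E2F word before the start are printed 5′ to 3′ on the strand of the gene, with the word in capitals. They lie before the RefSeq start used for the window, at chr8:75109334-75109393 (plus strand) for Mcm5, chr1:128359719-128359778 (minus strand) for Mcm6 and chr11:98907987-98908046 (plus strand) for Cdc6. In GENCODE vM21 those of Mcm5 and Mcm6 lie outside any transcript, and that of Cdc6 lies in an intron of a Cdc6 transcript that begins further upstream.
Mcm5: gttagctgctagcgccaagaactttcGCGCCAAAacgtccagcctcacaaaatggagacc
Mcm6: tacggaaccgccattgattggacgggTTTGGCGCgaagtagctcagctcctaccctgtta
Cdc6: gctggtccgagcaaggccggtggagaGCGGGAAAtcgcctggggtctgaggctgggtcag
The words in capitals begin 149, 47 and 138 bases before that start, and those of Mcm5 and Cdc6 are read on the opposite strand. In the Mcm5 stretch the word TTTCGCGC, on the strand of the gene, overlaps the word in capitals. A match is a stretch of letters and not a measured binding site.

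No origin recognition gene fell, and 1 of 6 rose in total RNA and 2 of 6 in RPFs, while 2 of the 3 licensing genes fell in total RNA and 1 in RPFs. Over all genes 28.0% fell and 26.3% rose in total RNA and 15.7% and 14.1% in RPFs. Orc4, a core subunit, was at 103, 99.4 and 108 CPM of total RNA in controls and 131, 134 and 142 CPM in Rnmt cKO libraries, and at 101, 93.8 and 93.3 CPM of RPFs against 130, 132 and 114 CPM. Its groups did not overlap in either measure, and the log2 fold change was 0.39 in both, ± 0.06 in total RNA (edgeR adjusted p = 0.000891) and ± 0.08 in RPFs (edgeR adjusted p = 0.00694). Without both libraries rich in B cell RNA the Orc4 changes were 0.48 in total RNA, still called, and 0.24 in RPFs, not called (edgeR adjusted p = 0.173). Orc6, the smallest subunit, was at 153, 148 and 142 CPM of RPFs in controls and 186, 186 and 166 CPM in Rnmt cKO libraries. That rise of 0.28 ± 0.07 passed the threshold (edgeR adjusted p = 0.0152) but not without control replicate 3, without Rnmt cKO replicate 1 or without both libraries rich in B cell RNA, where it was 0.17 (edgeR adjusted p = 0.292), and its RNA change of 0.15 ± 0.06 did not pass.

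Cdt1, which brings the MCM ring to origins, and Gmnn, encoding the geminin that inhibits CDT1, both fell in total RNA, by 0.33 ± 0.06 and 0.37 ± 0.08 on the log2 scale (edgeR adjusted p = 0.00206 and 0.0043), the latter at -0.30 and not called without both libraries rich in B cell RNA (edgeR adjusted p = 0.0569). Their RPF changes of -0.10 and -0.12 were not called. Cdc6, the ATPase that loads the ring, showed the other pattern, with a log2 fold change of 0.02 ± 0.09 in total RNA and of -0.28 ± 0.09 in RPFs (edgeR adjusted p = 0.0418), and lost the RPF call in 5 of the 6 fits with a library left out. Its RPFs were at 116, 112 and 102 CPM in controls and at 95.7, 95 and 80.5 CPM in Rnmt cKO libraries, so the groups stood apart by little.

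Of the 8 helicase activation genes, 2 fell in total RNA (Gins1 and Cdc7), 1 fell (Gins2) and 1 rose (Cdc45) in RPFs, and none was called in TE (2 at an unadjusted p under 0.05, 0 by DESeq2), where 28.0% of all genes fell in total RNA, 15.7% fell and 14.1% rose in RPFs, and 9.81% were called in TE. Gins1, a subunit of the GINS complex that holds the active helicase together, was at 72.6, 74.1 and 59.2 CPM of total RNA in controls and at 48.9, 50.1 and 53.8 CPM in Rnmt cKO libraries. Its RNA changed by -0.43 ± 0.09 (edgeR adjusted p = 0.00588) and its RPFs by -0.02 ± 0.09, and the TE change of 0.41 ± 0.14 missed the threshold (edgeR adjusted p = 0.0832). Cdc45, the helicase cofactor, was at 172, 164 and 158 CPM of RPFs in controls and at 201, 193 and 178 CPM in Rnmt cKO libraries. The Cdc45 rise of 0.21 ± 0.07 was just past the threshold (edgeR adjusted p = 0.0437) and was lost in 5 of the 6 fits with a library left out, as was the Gins2 change of -0.35 ± 0.11. The Cdc7 change of -0.18 ± 0.06 in total RNA was lost in 4 of the 6, while its partner Dbf4 changed by 0.06 ± 0.05.

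Timeless and Tipin, the fork protection pair, had 2 of the 3 largest falls of the 50 genes in total RNA, with Rfc2 the other. Timeless, which with TIPIN steadies stalled forks and links them to the checkpoint, was at 186, 190 and 171 CPM of total RNA in controls and at 79.9, 79.4 and 83.5 CPM in Rnmt cKO libraries. RPFs were at 200, 183 and 203 CPM in controls and at 108, 108 and 111 CPM in Rnmt cKO libraries. Both measures were far apart, with log2 fold changes of -1.17 ± 0.06 (edgeR adjusted p = 9.43e-06) and -0.84 ± 0.06 (edgeR adjusted p = 9.58e-05). The RNA fell by more than the RPFs, so TE rose by 0.33 ± 0.09 (edgeR adjusted p = 0.0294), a call kept in 2 of the 6 fits with a library left out. Tipin was at 218, 217 and 196 CPM of total RNA in controls and at 135, 134 and 141 CPM in Rnmt cKO libraries, and at 126, 106 and 113 CPM of RPFs against 95.5, 79.5 and 82.0 CPM. Both fell, with log2 fold changes of -0.62 ± 0.06 (edgeR adjusted p = 0.000113) and -0.42 ± 0.10 (edgeR adjusted p = 0.0128, lost without Rnmt cKO replicate 2). Wdhd1, the third fork gene, which tethers polymerase alpha to the helicase, was not called, with -0.07 ± 0.06 and 0.06 ± 0.09.

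Polymerase and primase genes made up the largest block of falls in total RNA, with 7 of 9 down and only Pold2 up, where 28.0% of all genes fell and 26.3% rose. In RPFs 6 of the 9 fell and none rose, where 15.7% of all genes fell and 14.1% rose. Pola2, the regulatory subunit of polymerase alpha, was at 104, 111 and 95.9 CPM of total RNA in controls and at 75.9, 65.8 and 69.1 CPM in Rnmt cKO libraries, a log2 fold change of -0.56 ± 0.08 (edgeR adjusted p = 0.00064). RPFs of Pola2 were at 215, 232 and 202 against 169, 174 and 171 CPM, a change of -0.34 ± 0.07 (edgeR adjusted p = 0.00659). Neither measure overlapped between genotypes. Prim1, the catalytic subunit of primase, was at 142, 149 and 129 CPM of total RNA in controls and at 96.8, 95.2 and 96.1 CPM in Rnmt cKO libraries, and at 169, 163 and 155 CPM of RPFs against 137, 139 and 135 CPM. Both fell, RNA with a log2 fold change of -0.54 ± 0.06 (edgeR adjusted p = 0.000268) and RPFs with -0.25 ± 0.06 (edgeR adjusted p = 0.0154, lost without Rnmt cKO replicate 1). TE rose by 0.30 ± 0.09 (edgeR adjusted p = 0.0481), which held in 1 of the 6 fits with a library left out.

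Pole, the catalytic subunit of the leading-strand polymerase epsilon, fell in both measures. RPFs were at 272, 298 and 261 CPM in controls and at 201, 225 and 175 CPM in Rnmt cKO libraries, a change of -0.47 ± 0.10 (edgeR adjusted p = 0.00824). Its total RNA was at 168, 175 and 160 against 142, 147 and 125 CPM, a change of -0.28 ± 0.07 (edgeR adjusted p = 0.0118). The difference between these changes did not pass the TE threshold (-0.18 ± 0.13). Total RNA of Pole2, Prim2, Pold1 and Pold3 fell by 0.50, 0.43, 0.42 and 0.28 on the log2 scale, and the RPF call of Prim2 was lost in 5 of the 6 fits with a library left out. Pold2, a regulatory subunit of the lagging-strand polymerase delta, ran the other way, at 79.2, 88.4 and 80.4 CPM of total RNA in controls and 105, 100 and 104 CPM in Rnmt cKO libraries. RPFs of Pold2 were at 177, 177 and 172 against 177, 180 and 164 CPM. RNA rose by 0.32 ± 0.06 (edgeR adjusted p = 0.00314) with RPFs at -0.01 ± 0.06, and TE fell by 0.33 ± 0.08 (edgeR adjusted p = 0.0267), kept in 2 of the 6 fits with a library left out. Pola1, the catalytic subunit of polymerase alpha, was not called in any measure.

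Among the clamp and clamp loader genes, 4 of the 5 loader subunits fell in total RNA and 2 in RPFs, against 28.0% and 15.7% of all genes, and the clamp gene Pcna was not called. Rfc2 was at 177, 180 and 159 CPM of total RNA in controls and at 98.4, 88.9 and 100 CPM in Rnmt cKO libraries, and at 197, 217 and 194 CPM of RPFs against 138, 127 and 132 CPM. These were wide gaps, of -0.84 ± 0.07 (edgeR adjusted p = 6.24e-05) and -0.62 ± 0.07 (edgeR adjusted p = 0.000513). Rfc1, the large subunit that opens the clamp, was at 208, 221 and 189 CPM of RPFs in controls and at 152, 148 and 156 CPM in Rnmt cKO libraries, and at 215, 223 and 204 CPM of total RNA against 188, 164 and 172 CPM. RPFs changed by -0.44 ± 0.07 (edgeR adjusted p = 0.00291) and RNA by -0.29 ± 0.07 (edgeR adjusted p = 0.00714), with no overlap in either. Rfc4 and Rfc5 fell in RNA by 0.31 and 0.38 on the log2 scale, with RPF changes of -0.19 and -0.18 and TE changes of 0.12 and 0.21 that were not called, and Rfc3 was not called.

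Pcna RPFs, relative to their mean, varied more among replicates than those of any MCM gene: 408, 267 and 300 CPM in controls and 384, 270 and 251 CPM in Rnmt cKO libraries. Replicate 1 was high in both genotypes. Its total RNA was steadier, at 313, 340 and 280 against 312, 293 and 303 CPM. The changes of -0.04 ± 0.08 in RNA and -0.11 ± 0.19 in RPFs were within the replicate spread, and with an SE of 0.19 an RPF change of the size seen for the MCM genes could have been missed.

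Of the 3 subunits of replication protein A, which coats single-stranded DNA, Rpa1 fell in RPFs by 0.33 ± 0.06 (edgeR adjusted p = 0.00571), with a change of -0.21 ± 0.08 in RNA just short of the threshold (edgeR adjusted p = 0.0513), and Rpa2 and Rpa3 were not called. Fen1, the flap endonuclease, was not called, and Lig1 fell in RPFs by 0.23 ± 0.08 (edgeR adjusted p = 0.0475), lost in 5 of the 6 fits with a library left out. Total Lig1 RNA was at 104, 113 and 124 CPM in controls and at 118, 121 and 80.7 CPM in Rnmt cKO libraries, so Rnmt cKO replicate 3 alone was low.

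Rrm2, the small subunit of ribonucleotide reductase, which makes deoxyribonucleotides, had the largest TE change of the 50 genes. Its total RNA was at 105, 142 and 109 CPM in controls and at 200, 185 and 151 CPM in Rnmt cKO libraries, a rise of 0.59 ± 0.14 (edgeR adjusted p = 0.00811). Rrm2 RPFs were at 226, 259 and 206 CPM in controls and at 204, 199 and 169 CPM in Rnmt cKO libraries. That change of -0.27 ± 0.10 missed the threshold (edgeR adjusted p = 0.0805). It passed with a replicate block (edgeR adjusted p = 0.0267), with no filter and without control replicate 3. RNA was higher and RPFs lower in every Rnmt cKO library than in any control. The ratio of RPFs to RNA went from 2.16, 1.82 and 1.88 in controls to 1.02, 1.08 and 1.12 in Rnmt cKO libraries, a TE change of -0.85 ± 0.19 (edgeR adjusted p = 0.0127), lost without control replicate 1. Without both libraries rich in B cell RNA neither its RNA change of 0.37 nor its TE change of -0.81 was called (edgeR adjusted p = 0.0983 and 0.137). The large subunit gene Rrm1 moved little, by 0.06 ± 0.09 in RNA and -0.00 ± 0.08 in RPFs.

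Chaf1a encodes the large subunit of CAF-1, which places histones on new DNA. Among the replication genes, leaving aside the related genes described below, Chaf1a alone was called in opposite directions in total RNA and RPFs. Total RNA was at 95.8, 95.1 and 90.3 CPM in controls and at 118, 117 and 113 CPM in Rnmt cKO libraries, and RPFs were at 178, 182 and 168 CPM against 141, 143 and 138 CPM. RNA rose by 0.31 ± 0.05 (edgeR adjusted p = 0.00168) and RPFs fell by 0.32 ± 0.06 (edgeR adjusted p = 0.00492). The ratio of RPFs to RNA was 1.86, 1.92 and 1.86 in controls and 1.19, 1.22 and 1.22 in Rnmt cKO libraries, with no overlap and little spread, and TE changed by -0.63 ± 0.08 (edgeR adjusted p = 0.000194). The partner subunit Chaf1b was not called, with a TE change of -0.16 ± 0.10.

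**Figure D5:**
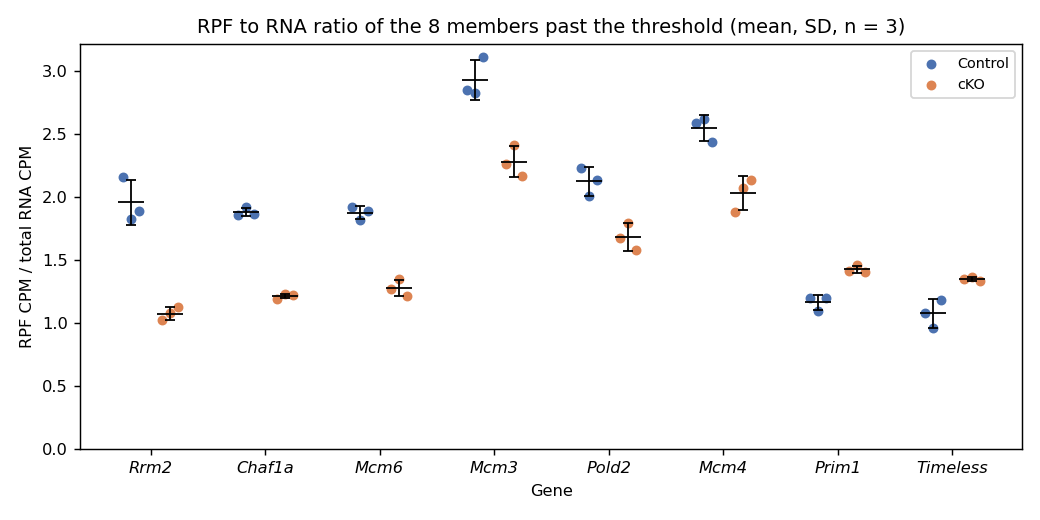
Ratio of RPF CPM to total RNA CPM in libraries of the same number (vertical axis from 0) for the 8 genes whose TE change passed the threshold, controls blue and Rnmt cKO orange; bars are means and whiskers SD (n = 3). For all 8 the genotypes do not overlap, and Rrm2 went from 1.82 to 2.16 in controls down to 1.02 to 1.12.

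Genes that act around the replication machinery were taken from lists by function. Of 33 other replication factors, 7 fell and 9 rose in total RNA, 6 fell and 3 rose in RPFs, and 5 fell and none rose in TE. Of all genes, 28.0% fell and 26.3% rose in total RNA, 15.7% and 14.1% in RPFs, and 6.57% and 3.24% in TE. Rnaseh2b, a subunit of the ribonuclease that removes ribonucleotides from DNA, fell in both, with log2 fold changes of -0.89 ± 0.06 in total RNA (edgeR adjusted p = 3.36e-05) and -0.61 ± 0.08 in RPFs (edgeR adjusted p = 0.000903). Donson, a factor in helicase assembly and fork stability, was at 80.8, 75.2 and 76.2 CPM of RPFs in controls and 53.6, 55.1 and 58.9 CPM in Rnmt cKO libraries. Donson RPFs changed by -0.47 ± 0.07 (edgeR adjusted p = 0.00233), while its total RNA rose by 0.22 ± 0.07. That total RNA call was lost in 4 of the 6 fits with a library left out, with a replicate block and with upper-quartile scaling. The 5 that fell in TE were Ticrr (treslin, which helps recruit CDC45), Donson, Dtl (the adaptor through which CDT1 is destroyed), Pole3 and Supt16, with TE changes of -0.94, -0.70, -0.64, -0.47 and -0.35. Pole3 and Supt16 each lost the TE call in 5 of the 6 fits with a library left out. Without both libraries rich in B cell RNA, Donson alone of the 5 kept its TE call, and its RPF change of -0.40 was not called (edgeR adjusted p = 0.0793). Ticrr RNA was at 28.3, 36.8 and 27.1 CPM in controls and 60.6, 69.0 and 48.6 CPM in Rnmt cKO libraries, while its RPFs overlapped, with a change of 0.00 ± 0.09.

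In the E2F and Rb family, which controls transcription of replication genes, 3 of 18 genes fell and 7 rose in total RNA and 2 fell and 4 rose in RPFs, against 28.0% and 26.3% of all genes in total RNA and 15.7% and 14.1% in RPFs. The 4 risers in RPFs were E2f3, Mybl2 and the repressors E2f7 and E2f8, and all 4 rose in total RNA too. Total RNA of E2f3, Mybl2 and E2f7 rose by 0.34, 0.52 and 0.68 on the log2 scale. Without both libraries rich in B cell RNA, these changes were 0.17, 0.21 and 0.51. E2f8 was at 13.8, 16.6 and 14.3 CPM of total RNA in controls and 32.8, 31.0 and 23.5 CPM in Rnmt cKO libraries, a rise of 0.96 ± 0.14 (edgeR adjusted p = 0.00079), and its RPFs rose by 0.87 ± 0.13. E2f7 RPFs were at 8.62, 8.87 and 8.93 CPM in controls and 18.8, 15.2 and 18.2 CPM in Rnmt cKO libraries, a rise of 0.98 ± 0.14 (edgeR adjusted p = 0.002). Rbl1, the Rb relative p107, fell in both, with log2 fold changes of -0.66 ± 0.06 in RNA and -0.74 ± 0.07 in RPFs (edgeR adjusted p = 7.31e-05 and 0.000229). E2f4, which acts with the pocket proteins, was the one of the 18 called in TE, where 9.81% of all genes were called, at -0.70 ± 0.09 (edgeR adjusted p = 0.000459).

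Of 14 S phase entry genes tested, 2 fell and 7 rose in total RNA and 1 fell and 7 rose in RPFs, where 28.0% and 26.3% of all genes fell and rose in total RNA and 15.7% and 14.1% in RPFs. Cdkn1a, the cyclin-dependent kinase inhibitor p21, stood out with 5.24, 7.24 and 9.04 CPM of total RNA in controls and 65.0, 66.3 and 41.7 CPM in Rnmt cKO libraries, and with 31.2, 43.6 and 31.9 CPM of RPFs against 199, 202 and 206 CPM. It rose by 3.0 ± 0.24 in RNA (edgeR adjusted p = 4.43e-05) and by 2.52 ± 0.12 in RPFs (edgeR adjusted p = 2.74e-05). Ccnd2, a D-type cyclin, rose by 0.97 ± 0.24 in RNA (edgeR adjusted p = 0.00988), where its Rnmt cKO values of 810, 1055 and 534 CPM were spread widely, and by 0.50 ± 0.07 in RPFs. Total RNA of Ccnd2, Cdkn1a and E2f8 was highest in Rnmt cKO replicates 1 and 2, the libraries rich in B cell RNA. Without both, the total RNA changes were 0.41 for Ccnd2, which lost its call (edgeR adjusted p = 0.112), 2.57 for Cdkn1a and 0.68 for E2f8, which kept theirs, and all 3 stayed called in RPFs. Skp2, which targets p27 for destruction, rose by 0.94 ± 0.18 in RPFs (edgeR adjusted p = 0.0062), and by 0.64, not called, without both libraries. Cdkn1b, which encodes p27, fell by 0.57 ± 0.10 in RNA (edgeR adjusted p = 0.00236), and by 0.33 without both libraries. Its RPF fall of 0.34 lost its call in 5 of the 6 fits with a library left out. Ccnd1 did not pass the filter on low counts and was not tested.

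Among 10 genes of dNTP supply, 2 fell and none rose in total RNA, against 28.0% and 26.3% of all genes. In RPFs 0 were called by edgeR, against 29.8% of all genes in either direction, with 2 at an unadjusted p under 0.05 and 1 called by DESeq2. Rrm2b, the small reductase subunit used outside S phase, was at 9.58, 10.9 and 10.7 CPM of total RNA in controls and 6.91, 7.05 and 5.69 CPM in Rnmt cKO libraries, a change of -0.67 ± 0.12 (edgeR adjusted p = 0.00255), while its RPFs, at 2.86 to 5.75 CPM in all 6 libraries, overlapped. Tk1, the thymidine kinase, fell by 0.41 ± 0.14 in total RNA (edgeR adjusted p = 0.0397). This call was lost in 4 of the 6 fits with a library left out and with unstranded counts.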

How the data were processed

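Per the submitters' processing notes, which name FastQC, cutadapt, Bowtie, STAR 2.5.2b, edgeR and mm10/GRCm38, and the study's methods, the authors aligned reads to mm10 with STAR, which counted uniquely aligned reads per gene. The deposited counts are whole reads in 3 columns by strand. The reverse-strand column was used, since it matched the deposited normalised signal, divided by library size by the authors, up to 1 factor per library. The authors' fold changes and p-values were not used. Reads assigned to no gene, 41.1% to 70.4% per library, were left out, and mitochondrial rRNA took 18.7% to 23.6% of gene reads in total RNA and 2.30% to 4.51% in RPFs. Lengths came from GENCODE vM21, which held 49326 of the 49585 genes.

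Genes with at least 1 CPM in 3 libraries, all 50 members among them, were tested by edgeR 4.0.16 quasi-likelihood F-tests in R 4.3.3, with TMM scaling within each kind of library and Benjamini-Hochberg adjustment over all genes tested. For TE, 1 model held the 12 libraries and the term tested was genotype by kind of library. SE is that of the log2 fold change. The fits were tested on simulated data. DESeq2 1.42.0, the edgeR exact test, other scalings and filters, unstranded counts, replicate blocks and leaving out libraries were alternatives. Nothing says that numbered libraries are separate animals, so p-values measure the spread between these samples, which may be technical. Total RNA and RPF libraries of the same number deviated together within each genotype (correlations 0.16 to 0.38 in controls and 0.11 to 0.36 in Rnmt cKO) and were taken as pairs in 1 alternative.

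The members and lists were chosen with earlier results of these data known. By rule, the text gives in full Rnmt, Pcna, Mcm2 to Mcm7, members called in TE, up to 5 largest called falls and rises in total RNA and in RPFs, the highest and lowest levels per length, and up to 3 of each among related genes. Other genes given values, such as Cdc6, Gins1, Lig1, Ticrr and Cdkn1b, were picked after their values were seen. Promoters were not analysed here for Rfc2, Mcm4, Tipin, Gins1, Gmnn, Pole, Gins4, Prim2 and Gins2. 1 gene of the marker lists was left out and is not reported here.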

Additional observations from a re-analysis of the deposited data

Results flagged for a closer look

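For 8 genes the genotype effect differed between RPFs and total RNA by the interaction test in edgeR (adjusted p under 0.05). The log2 change in RPFs was below that in total RNA for Chaf1a by -0.63, Mcm6 by -0.56, Rrm2 by -0.85, Mcm3 by -0.36, Pold2 by -0.33 and Mcm4 by -0.33. It was above it for Timeless by 0.33 and Prim1 by 0.30. In all 8 the 3 ratios of RPFs to RNA in Rnmt cKO lay outside those of the controls. The 8 were chosen by a test on these same libraries, so this separation is not further support. Of all 50 genes, 13 lay wholly below and 13 wholly above the controls. Groups of 3 libraries are too small for the test of a single outlying library.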

How the results depend on the processing

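No called value of the replication genes, Rnmt or the related genes changed direction in any alternative; for the markers none was run; the TE median of the 50 genes, near 0, changed sign without control replicate 3. Of 193 recomputed values of 17 summary results, 164 stayed close to the value reported and 29 moved, all of them in RPF, TE or RPF-to-RNA values given here. Without Rnmt cKO replicates 1 and 2, chosen after seeing the data, RPFs of 4 genes fell and 0 rose, with a median of -0.24, and TE fell for 2 and rose for 0, where 9.10% of all genes were called in RPFs and 3.63% in TE; fewer libraries were in that fit. TE gave 5 falls and 0 rises by library size without TMM, 3 and 0 with no filter, 3 and 2 by upper-quartile scaling (median 0.071), and 6 and 1 with unstranded counts. The median RPF-to-RNA ratio above that of all genes was 0.39 in controls with at least 10 counts in every library, and 0.47 in controls and 0.45 in Rnmt cKO with unstranded counts. Leaving out 1 library at a time gave 13 to 23 RPF falls, 1 to 3 RPF rises, RPF medians of -0.22 to -0.11, 2 to 5 TE falls, 0 to 2 TE rises and TE medians of -0.00902 to 0.047. The causes were not tested. Over 15 alternatives 16 of 21 calls in total RNA, 4 of 23 in RPFs and 2 of 8 in TE held in every one, and all kept their sign. Of the related genes' calls, 18 of 37 in total RNA, 8 of 23 in RPFs and 2 of 7 in TE held in every one.

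Replicate numbers of control and Rnmt cKO libraries share only a number: their deviations correlated at -0.48 to -0.17 in total RNA and -0.12 to 0.28 in RPFs, and 0 of 3 and 2 of 3 numbers correlated best with their own. With a replicate block, TE gave 5 falls and 0 rises, total RNA 16 and 4, and RPFs 20 and 3, with Rrm2 gained and Lig1 lost in RPFs. With total RNA and RPF libraries paired, TE gave 6 and 2, losing Mcm4 and gaining Mcm7. Rnmt cKO replicate 3 had the fewest RPF gene reads.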
